A study of Homo sapiens with 6 samples.

Results

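The 10 genes described here encode the subunits of the transcription factor NF-kappaB (NFKB1, NFKB2, RELA and RELB), its feedback inhibitors (NFKBIA, NFKBIE and TNFAIP3), the inhibitor of apoptosis (IAP) pair BIRC2 and BIRC3, and the early response gene IER3. They were chosen by symbol, with earlier results of these data known. All 10 were among the 28278 gene symbols in the tables and among the 14409 genes with enough counts to be tested. The measurements are read counts per gene from messenger RNA of RKO, a human colon carcinoma cell line, in 3 libraries of GSK3B knockout cells and 3 of cells with wild-type GSK3B. No treatment is named for either group, and the labels leave unsaid how GSK3B was knocked out, if the knockout cells are a single clone, and if libraries of a group came from separate cultures. A difference between clones and an effect of the knockout therefore cannot be told apart, and p-values measure the spread between these libraries, which may be technical. The comparison asks which transcripts of the pathway differ when GSK3B is knocked out.

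NF-kappaB acts as dimers that inhibitor proteins hold in the cytoplasm. Signals from cytokine receptors activate the IKK kinases, the inhibitors are degraded, and the dimers enter the nucleus and switch on genes that include those of their own inhibitors. GSK3B encodes a kinase best known for marking beta-catenin for degradation, and mouse embryos that lack it die with liver apoptosis of the kind seen without NF-kappaB function. BIRC2 and BIRC3 encode the ubiquitin ligases cIAP1 and cIAP2, which attach ubiquitin chains at the TNF receptor and keep the kinase NIK low.

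GSK3B itself had 46.0, 47.5 and 47.1 counts per 1e6 counts (CPM, with library sizes scaled by the TMM method) in the knockout libraries, against 99.0, 97.6 and 91.4 CPM in the wild-type libraries. This is a log2 fold change of -1.04 ± 0.05 (SE), or 48.8% of wild type, and the groups were far apart. A count summed over a gene cannot tell which stretches of the transcript the remaining reads came from. Its paralog GSK3A averaged 86.4 ± 2.29 CPM in knockout and 84.5 ± 4.57 CPM in wild-type libraries (SD, n = 3 each) and did not pass the test. Total counts per library ran from 32379369 to 33558362, and the 10 genes had between 230 and 4366 counts in each. Of 11 colon epithelial markers 5 had enough counts to be tested, CDX2, VIL1, KRT8, KRT18 and EPCAM. KRT19, KRT20, LGR5 and MUC2 had at most 5 counts in a library and CDH1 and CDX1 were listed at 0 in all 6, and EPCAM fell to 1.07 ± 0.04 CPM in knockout libraries, against 3.43 ± 0.95 CPM in wild-type libraries. Of 16 markers of blood, endothelial, stromal and liver cells 1 passed the filter on low counts, and 5, among them PTPRC, CD3E, CDH5 and ALB, were at 0 throughout. Their summed level was 0.56 to 0.992 CPM in knockout and 0.642 to 2.22 CPM in wild-type libraries, and its part in the results was not tested.

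The 250 bases before the gene starts are shown for genes of each behaviour reported below, since NF-kappaB dimers bind the 10-base kappaB motif and several of these genes are known targets of the factor. The sequences are from RefSeq on GRCh38.p14, which had entries for 7 of the 10 genes, NFKBIE, RELB and IER3 not being among them. They run 5′ to 3′ along the strand of the gene, and capitals mark letters that match the kappaB consensus motif on either strand. NFKBIA is at chr14:35404750-35404999 (minus strand), TNFAIP3 at chr6:137867009-137867258 (plus strand), BIRC3 at chr11:102317234-102317483 (plus strand), BIRC2 at chr11:102346964-102347213 (plus strand) and NFKB1 at chr4:102501109-102501358 (plus strand).
NFKBIA: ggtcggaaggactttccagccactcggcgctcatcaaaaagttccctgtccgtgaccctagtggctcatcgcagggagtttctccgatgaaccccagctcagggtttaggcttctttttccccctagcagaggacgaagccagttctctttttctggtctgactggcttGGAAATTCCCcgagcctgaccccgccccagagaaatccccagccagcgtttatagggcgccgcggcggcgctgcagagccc
TNFAIP3: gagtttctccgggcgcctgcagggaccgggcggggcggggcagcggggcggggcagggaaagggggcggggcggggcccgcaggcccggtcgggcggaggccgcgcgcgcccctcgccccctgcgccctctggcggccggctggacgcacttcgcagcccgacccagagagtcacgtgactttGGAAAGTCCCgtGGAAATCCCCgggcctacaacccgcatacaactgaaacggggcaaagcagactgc
BIRC3: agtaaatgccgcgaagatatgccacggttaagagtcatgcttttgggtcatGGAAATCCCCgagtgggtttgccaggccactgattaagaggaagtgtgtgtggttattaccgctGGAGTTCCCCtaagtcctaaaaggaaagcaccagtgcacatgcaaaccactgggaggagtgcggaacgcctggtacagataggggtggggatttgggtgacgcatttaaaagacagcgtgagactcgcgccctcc
BIRC2: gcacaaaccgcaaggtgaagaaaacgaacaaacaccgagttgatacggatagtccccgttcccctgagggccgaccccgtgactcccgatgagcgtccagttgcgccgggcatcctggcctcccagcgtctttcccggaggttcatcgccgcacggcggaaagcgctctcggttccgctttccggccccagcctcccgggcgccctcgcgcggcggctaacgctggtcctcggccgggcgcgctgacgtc
NFKB1: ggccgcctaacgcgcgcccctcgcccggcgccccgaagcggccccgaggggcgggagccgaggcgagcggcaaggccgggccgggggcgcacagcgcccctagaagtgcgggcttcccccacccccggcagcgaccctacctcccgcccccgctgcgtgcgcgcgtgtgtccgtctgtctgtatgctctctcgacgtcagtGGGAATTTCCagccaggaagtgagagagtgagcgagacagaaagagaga
The match in the NFKBIA sequence, GGAAATTCCC, began 81 bases before the start. TNFAIP3 held GGAAAGTCCC and GGAAATCCCC at 67 and 55 bases, and BIRC3 held GGAAATCCCC and GGAGTTCCCC at 199 and 135 bases. NFKB1, whose level did not pass the test below, held GGGAATTTCC at 49 bases, and its other window held no match. Neither of the BIRC2 windows, which belong to 2 annotated starts, held a match. The windows of RELA, which did not pass the test either, held none as well. Of the 3 windows of NFKB2 2 held matches, which overlap in one of them because GGGAATTCCC reads the same on both strands. In all, 6 of the 12 windows of these genes held the kappaB consensus, as did 5.21% of all 35114 windows of this length in the table. The TCF/LEF cores CTTTGAT and CTTTGAA, searched on both strands because beta-catenin acts through TCF/LEF factors, stood in 2.26% and 3.80% of all windows and in none of the 12. A match is a run of letters and not a measured binding site, and the lack of one says only that the letters are not in this window.

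Among the 10 genes, 6 fell and 1 rose in the knockout, and 3 did not pass the test. NFKBIA, NFKBIE, TNFAIP3, NFKB2, RELB and BIRC3 had log2 fold changes from -0.49 for BIRC3 to -0.26 for NFKBIE, BIRC2 stood at 0.36, and RELA, NFKB1 and IER3 were not called. The test was edgeR's quasi-likelihood test, with p-values adjusted over all 14409 genes by the Benjamini-Hochberg method and a threshold of 0.05. Of all tested genes 13.5% passed it, 6.36% higher and 7.18% lower in the knockout. The split of all calls was 917 higher and 1034 lower, but 649 higher and 1229 lower when libraries were scaled by their totals alone. The median log2 fold change of the 10 genes was -0.27, beside 0.00 for all tested genes. The 10 genes were chosen with earlier results of these data known, so their calls and this median do not test the pathway as a set. In bulk RNA, fewer cells that express a gene and less of its RNA per cell cannot be told apart.

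**Figure D1:**
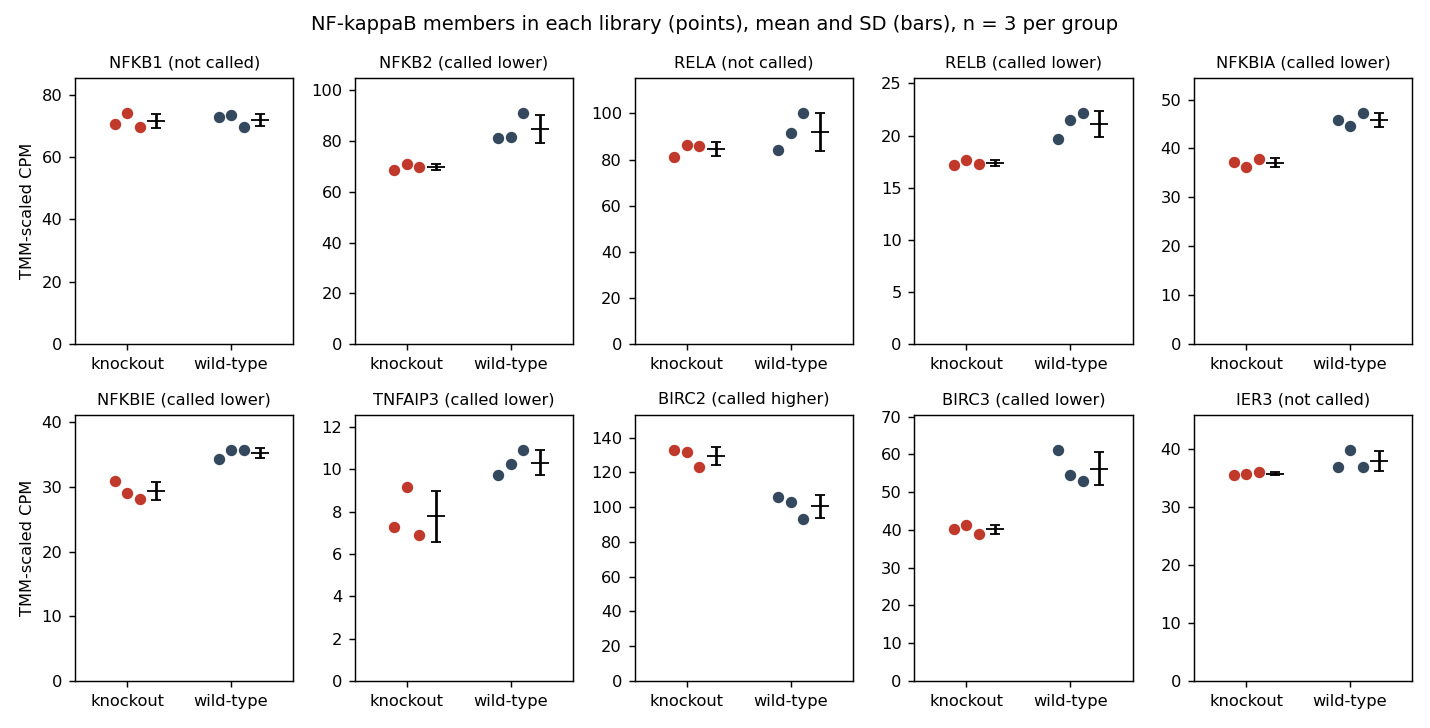
Level of each of the 10 genes in TMM-scaled CPM (vertical axes from 0) in each knockout and wild-type library, with the mean and SD of 3 libraries beside the points. BIRC2 stands at 123 to 133 CPM in the knockout and 93.1 to 106 CPM in wild type, and BIRC3 at 39.0 to 41.2 CPM in the knockout and 52.9 to 61.2 CPM in wild type.

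All 3 feedback inhibitors fell. NFKBIA (ENSG00000100906.10, chromosome 14, 35401511 to 35404749, minus strand, hg38) encodes IkappaB-alpha, an inhibitor whose gene NF-kappaB itself induces. It had 37.3, 36.2 and 37.9 CPM in the knockout libraries, against 45.8, 44.5 and 47.2 CPM in the wild-type libraries. Every knockout value lay below every wild-type value, with a gap wider than the range within either group. The log2 fold change was -0.30 ± 0.06 (SE, 95% interval -0.42 to -0.19; edgeR adjusted p = 7.65e-04), which puts the knockout at 81.0% of wild type.

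NFKBIE (chromosome 6, 44258166 to 44265788) encodes IkappaB-epsilon, a second inhibitor of this family. It had 30.9, 29.1 and 28.2 CPM in the knockout libraries, against 34.4, 35.7 and 35.6 CPM in the wild-type libraries, and the groups did not overlap. Its log2 fold change was -0.26 ± 0.06 (SE; edgeR adjusted p = 0.00681). TNFAIP3 (chromosome 6, 137867188 to 137883312) encodes A20, an enzyme that edits ubiquitin chains and shuts the pathway off upstream of IKK. It was the least abundant of the 10 genes, with 7.28, 9.17 and 6.91 CPM in the knockout libraries, against 9.75, 10.3 and 10.9 CPM in the wild-type libraries. Knockout replicate 2 came close to the lowest wild-type library, and the knockout values spread by 15.6% of their mean, where counting error alone gives 6.27% a library. Its log2 fold change was -0.41 ± 0.11 (SE; edgeR adjusted p = 0.0183). TNFAIP3 did not pass without knockout replicate 1, knockout replicate 3 or wild-type replicate 2 (edgeR adjusted p = 0.091, 0.108 and 0.0638), at log2 fold changes of -0.36, -0.33 and -0.41. It shares 95 exon bases with an antisense gene that has no row of its own in the tables.

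Of the 4 subunits, the non-canonical pair NFKB2 and RELB fell and RELA and NFKB1 did not pass. NFKB2 (chromosome 10, 102394110 to 102402529) encodes p100, the precursor of the p52 subunit of the non-canonical pathway. It had 68.4, 70.8 and 69.7 CPM in the knockout libraries, against 81.0, 81.6 and 90.9 CPM in the wild-type libraries. The groups were clearly apart, with wild-type replicate 3 the highest, and the log2 fold change was -0.28 ± 0.05 (SE; edgeR adjusted p = 6.78e-04). RELB (chromosome 19, 45001430 to 45038198), which encodes the usual partner of p52, had 17.1, 17.7 and 17.2 CPM in the knockout libraries, against 19.7, 21.5 and 22.2 CPM in the wild-type libraries. The groups did not overlap, and the log2 fold change was -0.28 ± 0.08 (SE; edgeR adjusted p = 0.0142). RELB did not pass after a correction for GC content (log2 fold change -0.19; edgeR adjusted p = 0.0537), nor without knockout replicate 1, knockout replicate 3 or wild-type replicate 2 (edgeR adjusted p = 0.0622, 0.0566 and 0.0668).

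The canonical dimer is made of the products of RELA and NFKB1. RELA (chromosome 11, 65653596 to 65663094), which encodes p65, had 81.2, 86.5 and 86.0 CPM in the knockout libraries, against 84.0, 91.6 and 100.1 CPM in the wild-type libraries. The groups overlapped at wild-type replicate 1, and the log2 fold change of -0.12 (95% interval -0.23 to -0.01; edgeR adjusted p = 0.153) did not pass. It passed without wild-type replicate 1 (log2 fold change -0.19; edgeR adjusted p = 0.0114). NFKB1 (chromosome 4, 102501329 to 102617302), which encodes p105 and its product p50, had 70.6, 74.0 and 69.7 CPM in the knockout libraries, against 72.7, 73.4 and 69.7 CPM in the wild-type libraries. These ranges nearly coincide, and the interval of its log2 fold change ran from -0.11 to 0.09. The fifth subunit gene REL, which is outside the 10, averaged 73.6 ± 4.38 CPM in knockout and 69.7 ± 10.4 CPM in wild-type libraries (SD, n = 3 each) and did not pass, except without wild-type replicate 1 (log2 fold change 0.18; edgeR adjusted p = 0.0336).

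**Figure D2:**
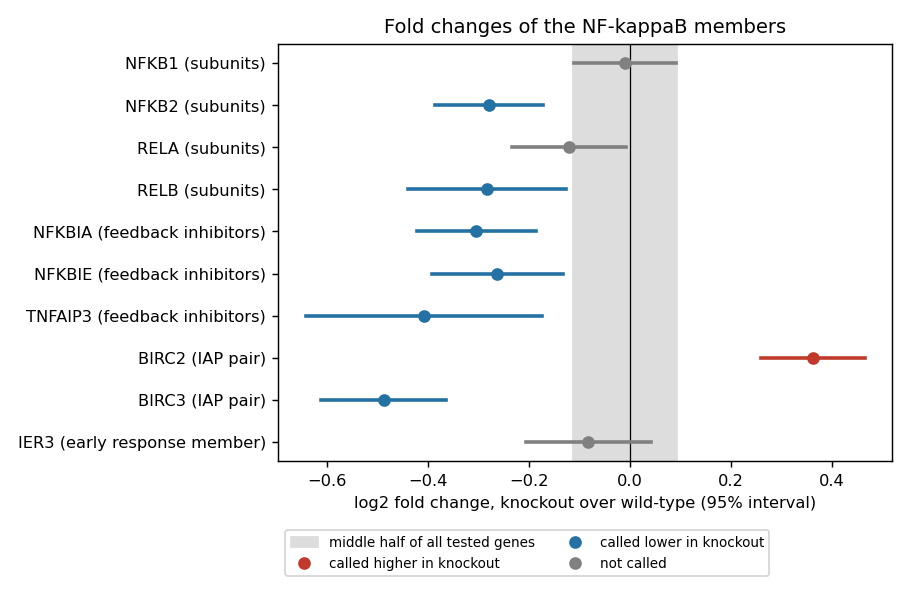
Log2 fold change of each gene, knockout over wild type (horizontal axis), with its 95% interval from edgeR, coloured by call; the grey band holds the middle 50% of all tested genes. The intervals of NFKB1 (-0.11 to 0.09) and IER3 (-0.21 to 0.04) include 0, while those of NFKBIA (-0.42 to -0.19) and BIRC3 (-0.61 to -0.36) lie wholly below it and that of BIRC2 (0.26 to 0.47) above it.

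BIRC2 and BIRC3 moved in opposite directions. The 2 genes are paralogs that lie side by side on the plus strand of chromosome 11, BIRC3 from 102317450 to 102339403 and BIRC2 from 102347211 to 102378670, with starts 29.8 kb apart. BIRC2 had 133, 132 and 123 CPM in the knockout libraries, against 106, 103 and 93.1 CPM in the wild-type libraries. All knockout values were higher, by a log2 fold change of 0.36 ± 0.05 (SE, 95% interval 0.26 to 0.47; edgeR adjusted p = 2.00e-05), or 1.29-fold. BIRC3 had 40.1, 41.2 and 39.0 CPM in the knockout libraries, against 61.2, 54.6 and 52.9 CPM in the wild-type libraries. All knockout values were lower, by a log2 fold change of -0.49 ± 0.06 (SE, 95% interval -0.61 to -0.36; edgeR adjusted p = 5.13e-06), or 71.3% of wild type. How reads that match both paralogs were counted is not stated by the labels.

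Within a library the balance of the pair does not depend on how libraries are scaled. BIRC3 made up 23.2%, 23.8% and 24.1% of the summed counts of the pair in the knockout libraries, against 36.6%, 34.7% and 36.3% in the wild-type libraries. The 95% Wilson intervals, which cover counting error only, reached from 22.1% to 25.2% over the knockout libraries and from 33.4% to 37.9% over the wild-type libraries. The ratio of BIRC3 to BIRC2 counts averaged 0.31 ± 0.01 in knockout and 0.559 ± 0.025 in wild-type libraries (SD, n = 3 each), a difference of -0.85 in log2 ratio (two-sided exact permutation p = 0.1, which 3 libraries a group cannot go below). The 2 genes together summed to 169 ± 6.16 CPM in knockout and 157 ± 10.6 CPM in wild-type libraries.

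**Figure D3:**
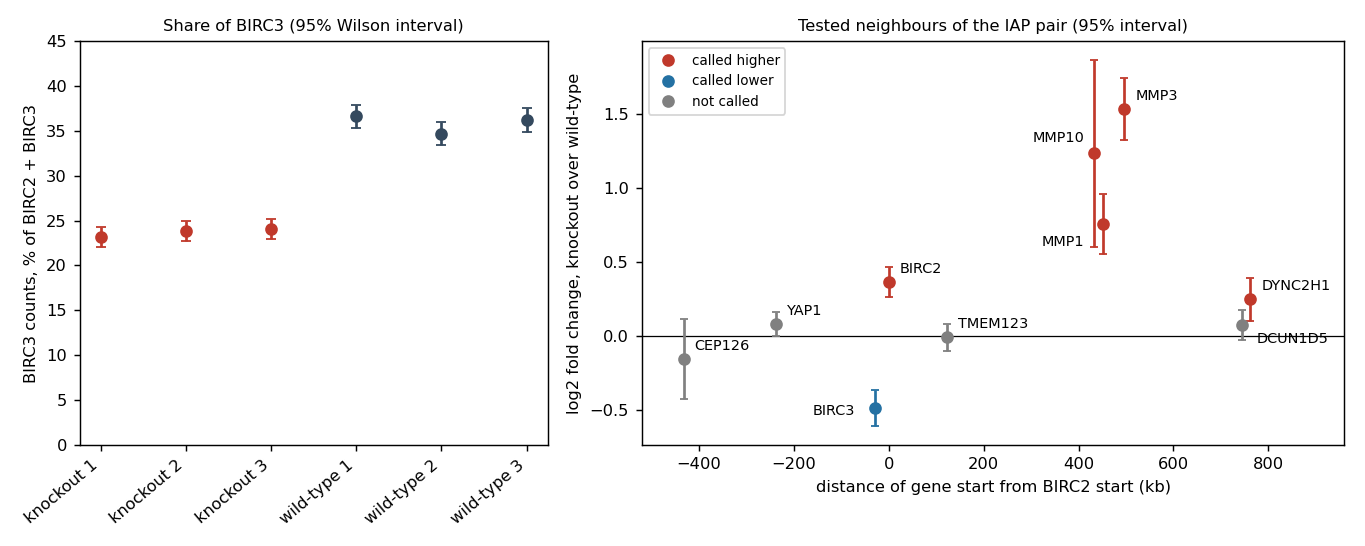
Left, share of BIRC3 in the summed counts of BIRC2 and BIRC3 in each library (percent, axis from 0) with its 95% Wilson interval. Right, log2 fold change, knockout over wild type, with its 95% interval for BIRC2, BIRC3 and the tested genes around them, against the distance of each gene start from that of BIRC2 in kb; BIRC3 (-0.49) lies below 0 and BIRC2 (0.36), MMP10, MMP1, MMP3 and DYNC2H1 above it.

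The genes around the pair were described as well, since the opposite changes lie within one stretch of chromosome 11. Of 8 tested neighbours 4 rose, the matrix metalloproteinase genes MMP10, MMP1 and MMP3 and the dynein gene DYNC2H1, with log2 fold changes of 1.24, 0.76, 1.54 and 0.25, where 6.36% of all tested genes rose. The groups of DYNC2H1 overlapped, and it did not pass without knockout replicate 1 or 2 or wild-type replicate 2 or 3; MMP10, at 1.58 ± 0.44 CPM in knockout and 0.668 ± 0.137 CPM in wild-type libraries, did not pass without knockout replicate 2. The nearest tested genes on either side of the pair were not called. YAP1, the Hippo pathway coactivator 236.8 kb before BIRC2, stood at 0.08 and TMEM123, 123.2 kb after it, at -0.01 on the log2 scale. TMEM123 passed as lower after the GC correction (log2 fold change -0.09; edgeR adjusted p = 0.0189). CEP126 and DCUN1D5 were at -0.16 and 0.07 and were not called. MMP1 and MMP3 share exon positions with the pseudogene WTAPP1 on the opposite strand, in 150 and 32 bases. WTAPP1 had 0.28 ± 0.04 CPM in knockout and 0.15 ± 0.05 CPM in wild-type libraries. MMP1 averaged 14.0 ± 1.24 CPM in knockout and 8.27 ± 0.35 CPM in wild-type libraries, and MMP3 averaged 16.0 ± 0.53 CPM in knockout and 5.50 ± 0.55 CPM in wild-type libraries.

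IER3 (chromosome 6, 30743199 to 30744554), an early response gene that NF-kappaB and growth factor signals induce, had 35.6, 35.8 and 36.1 CPM in the knockout libraries, against 36.9, 39.9 and 36.9 CPM in the wild-type libraries. The knockout values all lay below the wild-type values, but by little, and the log2 fold change of -0.08 (95% interval -0.21 to 0.04; edgeR adjusted p = 0.399) did not pass. With it, 8 of the 10 genes had groups that did not overlap, 7 lower and 1 higher in the knockout, where this held for 31.3% of all tested genes, 15.9% lower and 15.4% higher. IER3 shares 359 exon bases with its antisense gene IER3-AS1, which averaged 7.78 ± 0.30 CPM in knockout and 8.98 ± 1.10 CPM in wild-type libraries (SD, n = 3 each; named after its values were seen), so part of the counts of this pair may be exchanged.

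Count ratios of other pairs of these genes were also taken within each library. NFKBIA counts relative to NFKB1 counts were 0.528, 0.489 and 0.544 in the knockout libraries, against 0.63, 0.607 and 0.678 in the wild-type libraries. NFKB2 counts relative to NFKB1 counts were 0.968, 0.956 and 1.00 in the knockout libraries, against 1.11, 1.11 and 1.30 in the wild-type libraries. In both ratios the knockout libraries were the lower ones without overlap. The ratios of NFKBIA to RELA and of RELB to RELA were lower too, by 0.19 and 0.16 in log2 ratio, and that of IER3 to NFKBIA was higher by 0.22. Only the ratio of TNFAIP3 to NFKBIA overlapped between the groups among the 7 ratios taken (two-sided exact permutation p = 0.6, beside 0.1 for each of the others, or 0.117 when adjusted over the 7).

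Per kilobase of the longest annotated transcript, the order of the 10 genes differed between the groups mainly through BIRC2 and NFKBIA. In the knockout libraries BIRC2 was highest, at 31.7 ± 1.29 CPM per kb (SD, n = 3), followed by RELA (26.6 ± 0.92), IER3 (26.6 ± 0.21), NFKBIA (23.8 ± 0.56) and NFKB2 (20.4 ± 0.35 CPM per kb). In the wild-type libraries NFKBIA (29.4 ± 0.87), RELA (28.9 ± 2.54) and IER3 (28.1 ± 1.29 CPM per kb) led without differing beyond their spread, and NFKB2 (24.7 ± 1.62) and BIRC2 (24.7 ± 1.64 CPM per kb) followed at equal levels. NFKB1 at 17.5 ± 0.56 CPM per kb and NFKBIE at 11.4 ± 0.53 CPM per kb came next in the knockout, as they did in wild type at 17.6 ± 0.48 and 13.7 ± 0.30 CPM per kb. BIRC3 and RELB were level in the knockout, at 7.72 ± 0.21 and 7.57 ± 0.13 CPM per kb, while in wild type BIRC3 at 10.8 ± 0.84 stood above RELB at 9.21 ± 0.55 CPM per kb. TNFAIP3 was lowest in both groups, at 1.64 ± 0.26 CPM per kb in the knockout and 2.18 ± 0.12 CPM per kb in wild type. These positions depend on the length used: with the union of all annotated exons, NFKBIA ranked 3 in both groups and IER3 led in wild type. With that length BIRC2 ranked 2 in wild type and 1 in the knockout.

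Elsewhere in the pathway most genes did not pass the test. Over 6 further lists, 97 of 126 genes were tested, of which 12 fell, 5 rose and 80 did not pass, beside 7.18% lower and 6.36% higher among all tested genes. The median log2 fold change of these 97 genes was -0.01. Without knockout replicate 2 or wild-type replicate 2 the genes that fell numbered 5 and 6, and those that rose numbered 2 without knockout replicate 1, knockout replicate 2 or wild-type replicate 2, 3 without knockout replicate 3 and 8 without wild-type replicate 1.

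**Figure D4:**
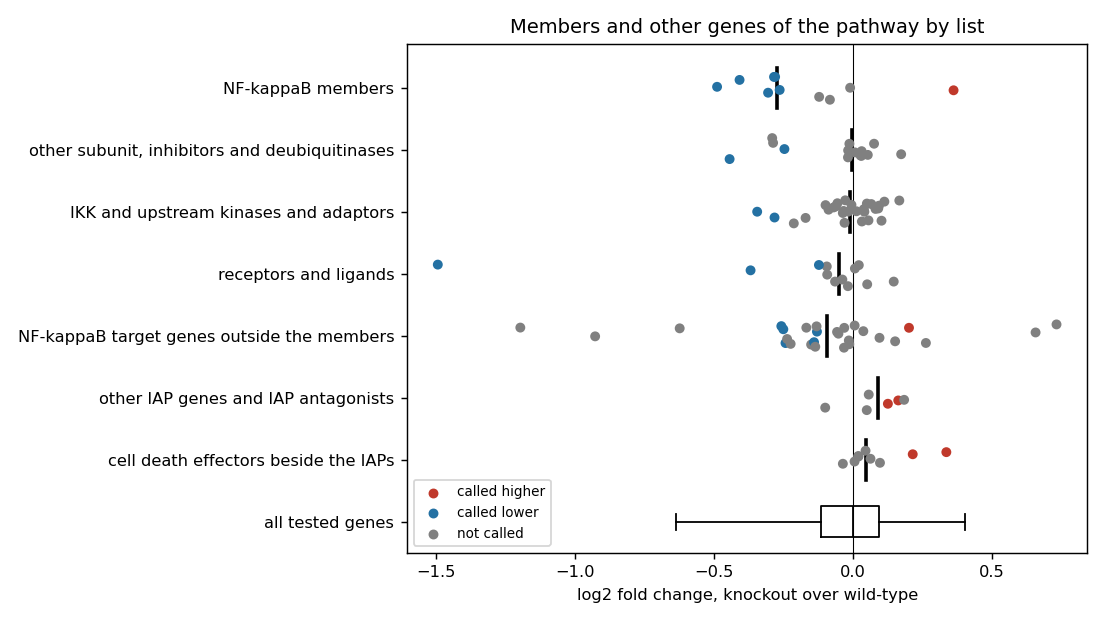
Log2 fold change, knockout over wild type (horizontal axis), of the 10 genes and of the tested genes in 6 further lists of the pathway, 1 point a gene, coloured by call, with the median of each list as a bar. The box at the bottom shows all tested genes (quartiles, with whiskers over the middle 95%); the median of the 10 genes is -0.27 and that of the upstream kinases and adaptors is -0.01.

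Among ligands and receptors, 12 of 29 genes were tested and 17 had too few counts, with at most 17 in any library. Of the ligands that start the pathway, LTA and TNFSF10 were listed at 0 in all 6 libraries, TNF had 2 counts in 1 knockout library, and IL1A had 3 to 8 counts in the knockout libraries and up to 9 in the wild-type libraries. TNFSF12, which encodes the ligand TWEAK, was the ligand gene with enough counts to be tested, at 11.2 ± 0.41 CPM in knockout and 11.7 ± 1.00 CPM in wild-type libraries (SD, n = 3 each), and did not pass. No absence is read from a listed 0, because FBL, a nucleolar gene of dividing cells (named after its values were seen), is also listed at 0. The TNF receptor gene TNFRSF1A was expressed at 72.2 ± 1.92 CPM in knockout and 77.0 ± 2.91 CPM in wild-type libraries (SD, n = 3 each) and did not pass. TNFRSF11A, which encodes the receptor RANK, fell to 0.59 ± 0.07 CPM in knockout libraries, against 1.67 ± 0.18 CPM in wild-type libraries, on 17 to 22 counts in the knockout libraries and 48 to 60 in the wild-type libraries. IL1RAP, a subunit of the interleukin-1 receptor, and TNFRSF10B, which encodes the TRAIL receptor DR5, also fell, at -0.37 and -0.12 on the log2 scale. Both were lost without knockout replicate 2 or wild-type replicate 2, and TNFRSF10B also without knockout replicate 1 or 3.

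Of 28 kinases and adaptors between the receptors and NF-kappaB, all of them tested, 2 fell and 26 did not pass. This is near the 7.18% of all tested genes that fell. The IKK genes IKBKB and IKBKG stood at -0.06 and -0.03 on the log2 scale, and CHUK at 0.17 (edgeR adjusted p = 0.0545), none of them called. CHUK passed without wild-type replicate 1 (log2 fold change 0.22; edgeR adjusted p = 0.00696) and with a weaker filter on low counts (edgeR adjusted p = 0.0401). MAP3K14, which encodes NIK, the kinase that cIAP proteins hold low and that starts the processing of p100, fell to 13.4 ± 1.45 CPM in knockout libraries, against 16.3 ± 0.22 CPM in wild-type libraries (log2 fold change -0.28 ± 0.09 SE; edgeR adjusted p = 0.0352). It did not pass after the GC correction (edgeR adjusted p = 0.0676) or without knockout replicate 1 or 2 or wild-type replicate 2. MAP3K14 shares 713 exon bases with its antisense gene MAP3K14-AS1, which had 1.24 ± 0.12 CPM in knockout and 1.79 ± 0.29 CPM in wild-type libraries. IRAK2, a kinase of the interleukin-1 receptor pathway, fell at -0.34 and was lost in 4 of the 6 fits that left out a library, those without knockout replicate 2 or 3 or wild-type replicate 1 or 2. TRAF2 and TRAF3, which tie the cIAP proteins to NIK, stood at 0.01 and -0.04.

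Of 14 tested genes of other inhibitors and deubiquitinases 2 fell and 12 did not pass, and the median was 0.00 on the log2 scale. Among all tested genes 7.18% fell. TNIP1, which encodes the A20 partner ABIN1 and is itself an NF-kappaB target, fell to 112 ± 0.30 CPM in knockout libraries, against 152 ± 6.49 CPM in wild-type libraries (log2 fold change -0.44 ± 0.04 SE; edgeR adjusted p = 1.31e-07). NFKBIZ, which encodes the nuclear inhibitor-like protein IkappaB-zeta, fell to 26.9 ± 0.46 CPM in knockout libraries, against 31.9 ± 0.42 CPM in wild-type libraries (edgeR adjusted p = 0.0104), and did not pass without knockout replicate 2 (edgeR adjusted p = 0.0621). The deubiquitinase genes CYLD and OTULIN stood at 0.05 and 0.03 and were not called. NFKBIB, the gene of IkappaB-beta, was listed at 0 in all 6 libraries.

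Of 28 tested target genes of NF-kappaB outside the 10, 5 fell, 1 rose and 22 did not pass, with a median of -0.09 on the log2 scale. Among all tested genes 7.18% fell and 6.36% rose. The adhesion molecule gene ICAM1 fell to 77.5 ± 2.36 CPM in knockout libraries, against 92.6 ± 2.98 CPM in wild-type libraries, and the proteoglycan gene SDC4 fell to 165 ± 2.32 CPM, against 196 ± 3.67 CPM (SD, n = 3 each). KLF6, a zinc finger factor gene, fell at -0.24. The remaining calls were LIF and BCL2L1, a cytokine and an anti-apoptotic BCL2 family gene, at -0.14 and -0.13, both lost without knockout replicate 1 or 2 or wild-type replicate 2 or 3 and BCL2L1 also without knockout replicate 3; LIF was also lost after the GC correction (edgeR adjusted p = 0.0648). PLAU, the urokinase gene, rose to 298 ± 8.44 CPM in knockout libraries, against 259 ± 8.24 CPM in wild-type libraries. PLAU shares 916 exon bases with C10orf55 on the opposite strand. BCL2L1 shares 1424 with the antisense gene ABALON, and LIF shares 92 with its antisense gene LIF-AS1. Among the targets that did not pass, 2 chemokine genes differed in opposite directions. CXCL1 had 8, 9 and 11 counts in the knockout libraries, against 20, 27 and 18 in the wild-type libraries, at a log2 fold change of -1.20 (edgeR adjusted p = 0.0527). It was called lower in 1 of the 16 other settings that tested it, the GC correction without the replicate block (edgeR adjusted p = 0.0397). CXCL8 had 71, 65 and 84 counts in the knockout libraries, against 56, 54 and 30 in the wild-type libraries, and its log2 fold change of 0.66 (edgeR adjusted p = 0.0756) did not pass, but it did without wild-type replicate 1 (edgeR adjusted p = 0.0456) and with a weaker filter on low counts (edgeR adjusted p = 0.0467). JUNB, which encodes an AP-1 subunit, stood at -0.17 (edgeR adjusted p = 0.0573) and passed as lower in 5 of the 17 other settings, among them the fit without wild-type replicate 1 (edgeR adjusted p = 0.0199). SOD2 and BCL2A1, at 164 ± 3.16 and 371 ± 9.01 CPM in knockout and 153 ± 8.19 and 379 ± 27.2 CPM in wild-type libraries, did not pass either. BCL2A1 passed as lower after the GC correction (log2 fold change -0.11; edgeR adjusted p = 0.00452) and without wild-type replicate 3 (edgeR adjusted p = 0.0458).

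Among 6 other tested IAP genes and antagonists 2 rose, where 6.36% of all tested genes rose. XIAP, the direct caspase inhibitor of the family, had 81.5 ± 2.97 CPM in knockout and 72.7 ± 2.12 CPM in wild-type libraries (SD, n = 3 each; log2 fold change 0.16; edgeR adjusted p = 0.0262), and BIRC6 rose by 0.13. XIAP did not pass after the GC correction (log2 fold change 0.08; edgeR adjusted p = 0.183), and both were lost without knockout replicate 1 or 2 or wild-type replicate 2. BIRC6 was also lost without knockout replicate 3 and with scaling by library totals alone. BIRC5, which encodes survivin, and the antagonist gene DIABLO stood at 0.05 and -0.10 and did not pass. Among the cell death effectors MLKL, the executor of necroptosis, rose to 44.3 ± 2.53 CPM in knockout libraries, against 35.1 ± 0.775 CPM in wild-type libraries (log2 fold change 0.34 ± 0.06 SE; edgeR adjusted p = 4.94e-04). RIPK3, which activates MLKL, was listed at 0 in all 6 libraries, and CASP8, an initiator caspase gene, stood at 0.02.

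Other genes followed single members closely over the 6 libraries. Tested genes averaging 5 CPM or more were ranked, passing over antisense genes, pseudogenes and LOC or LINC symbols. The patterns most like that of NFKBIA were those of PLAT, TPM2 and GAS6 (Pearson r of log2 CPM 0.997, 0.996 and 0.996, n = 6 libraries). For BIRC3 they were those of PPARA, EGLN1 and TNKS2 (r = 0.998, 0.995 and 0.994), and for BIRC2 those of GCLM, SERP1 and HNRNPD (r = 0.998, 0.998 and 0.998). The 6 points of each pair of genes share the difference between the groups and the libraries. Genes chosen in this way carry the direction of the member by construction.

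The correction for GC content changed the size of some of these differences. The longest transcripts of BIRC3 and BIRC2 had 34.8% and 38.0% GC and those of NFKB2 and RELB 62.4% and 65.4%. After a correction for GC content the log2 fold changes were -0.60 for BIRC3, 0.27 for BIRC2, -0.28 for NFKBIA, -0.40 for TNFAIP3, -0.19 for NFKB2 and -0.19 for NFKBIE, all still called. Over the 17 other settings tried, NFKBIA, NFKBIE, NFKB2, BIRC2 and BIRC3 passed in each, while NFKB1 and IER3 passed in none of them. Of those that passed in each, NFKBIE came nearest the threshold, without knockout replicate 3 (edgeR adjusted p = 0.0493).

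**Figure D5:**
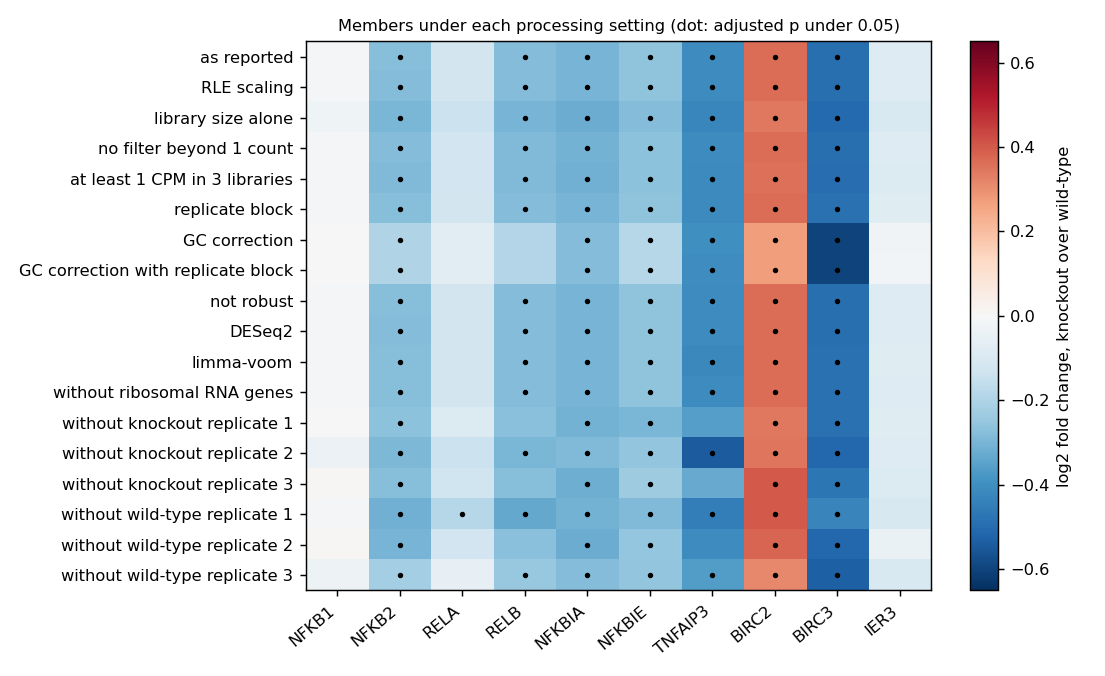
Log2 fold change, knockout over wild type (colour), of the 10 genes (columns) as reported and under 17 other settings (rows), with a dot where the adjusted p is under 0.05. BIRC2 is higher and BIRC3 lower in every row, and the dots of RELB and TNFAIP3 are missing without knockout replicate 1, knockout replicate 3 or wild-type replicate 2, as is that of RELB after the GC correction.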

How the data were processed

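Counts per gene came from 6 RKO libraries, 3 knockout and 3 wild-type, grouped by their titles. The authors deposited raw read counts, 1 table a library, with genes named by symbol. TopHat, limma, edgeR and the build hg38 are named, without roles, per the submitters' processing notes; for the counting program, annotation and strand setting, nothing is given in the sources used here.

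Counts were filtered by filterByExpr (minimum count 10, minimum total 15), scaled by TMM and tested in R 4.3.3 with edgeR 4.0.16 (quasi-likelihood, robust, group as the only term). Adjusted p-values are Benjamini-Hochberg values over all 14409 tested genes, and CPM values are TMM-scaled. Standard errors were derived from the fold change and F statistic. Positions and lengths are those of GENCODE on hg38, and 95.9% of tested genes had a GC value for the correction (spline with 5 degrees of freedom a library). Within groups, chi-square per degree of freedom between libraries was 3.17 to 9.71, above sampling noise. Each library counted as 1 replicate, though this spread does not show that libraries came from separate cultures. Alternatives were other scalings, filters and GC correction, the replicate block, DESeq2 1.42.0, limma-voom (limma 3.58.1) and leaving out libraries. The 10 genes and the lists were chosen with earlier results of these data known. The text names all 10 genes, up to 4 called genes a list with the largest change (or, with none called, the most abundant), every tested neighbour of the IAP pair and the 3 genes most like NFKBIA, BIRC3 and BIRC2; further list genes were chosen after their values were seen. One list gene that the rule would name is not reported here.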

Additional observations from a re-analysis of the deposited data

How the results depend on the processing

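Of the 10 genes, the 17 other settings left the calls of NFKBIA, NFKBIE, NFKB2, BIRC2 and BIRC3 in place, and those that changed for RELB, TNFAIP3 and RELA are given above, beside the loss of RELB with the GC correction and the replicate block together (log2 fold change -0.19; edgeR adjusted p = 0.0651). No called gene among the 10 changed direction. The number that fell ran from 4 to 7 over the fits without 1 library and was 5 after the GC correction; the number that rose was 1 throughout. Over the fits without 1 library, the genes called among all tested ran from 361 to 1259 higher and from 589 to 1272 lower, those of the pathway lists from 2 to 8 higher and from 5 to 13 lower, and the log2 ratio of BIRC3 to BIRC2 from -0.89 to -0.83. Pathway genes called higher numbered 3 with library totals alone and 8 after the GC correction. The GC correction brought 7 pathway genes past the threshold. IRAK1, TNFRSF12A, LTBR and HTRA2 were then higher (edgeR adjusted p = 1.88e-04, 5.69e-04, 0.00973 and 0.0481), and CXCL1, BCL2A1 and TNFAIP8 lower. The cause of these shifts was not tested, and the fits that left out a library also held fewer libraries. Libraries with the same replicate number did not deviate together (correlations 0.07, -0.00406 and 0.03), and the main fit did not pair them. With 3 libraries a group, these correlations cannot exclude that libraries with the same number were handled together. With the replicate number as a block 1080 genes were higher and 1113 lower, and with the block and the GC correction 1389 were higher and 8 pathway genes were higher, while the calls of the 10 genes stayed at 1 higher and 6 lower with the block alone. With it, CHUK passed (log2 fold change 0.17; edgeR adjusted p = 0.0341). Of the 17 pathway genes called, 7 passed in all settings. Of the 10 genes TNFAIP3 had the fewest counts, with a counting error of 6.27% for a knockout library, beside a spread of 15.6% between the knockout libraries. The expression levels per kilobase depend on which transcript is taken as the length.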
